A study of Caenorhabditis elegans with 2 samples.

Results

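The regions described here are weak peaks of DAF-16 chromatin binding that had a summit in the peak lists of both replicates. They fell below the cut of the irreproducible discovery rate (IDR), a measure of how alike peaks rank in replicates. They were chosen by the deposited values themselves. Each was a nuclear entry of the pooled peak list, absent from the IDR-thresholded list, with its summit more than 300 bp from any IDR-thresholded summit and within 100 bp of a summit in each replicate's own list. This selected 1045 of the 22437 nuclear entries of the pooled list, and the words weak peaks below mean these 1045.

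Chromatin immunoprecipitation and sequencing was carried out on whole Caenorhabditis elegans at the L4 larval stage, males and females pooled, in 1 group of 2 biological replicates with sonicated chromatin. The worms were of strain XE1464, labelled unc-119(ed3) III, and carried a stable transgene in which DAF-16 ends in GFP and FLAG. The promoter and copy number of the transgene, the age in hours and the state of the endogenous daf-16 gene are not given in the labels, and there was no untagged, treated or mutant group. The labels name biological replicates but not separate cultures, so differences between them may be technical.

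The worm has a single FOXO transcription factor, DAF-16. When insulin-like signalling through the receptor DAF-2 and the kinase AKT-1 is low, DAF-16 enters the nucleus and acts on genes of stress resistance, dauer formation, metabolism and lifespan. FOXO proteins bind the DAF-16 binding element GTAAACA (DBE), and genes regulated by DAF-16 often also carry the DAF-16 associated element CTTATCA (DAE), whose opposite strand TGATAAG contains the GATA site TGATAA and is known to be bound by the zinc finger protein PQM-1.

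The weak peaks are shown here by the windows of 151 bp centred on the summits of 6 of them, since sequence was not used to choose them. They are, on the chromosomes used for sequences here, the strongest weak peaks whose whole window was intergenic, with a DBE, with a DAE and with neither, a pair of each. The stronger DAE peak nearest Y48A6B.9 is not shown, since its summit lay 8 bp from an annotated start and its window was not wholly intergenic. All are given 5′ to 3′ on the forward strand of build ce11 (WBcel235, RefSeq sequence), and capitals mark GTAAACA or TGATAAG, the DAE read on the opposite strand.
camt-1 (DBE, chrII:4507147-4507297): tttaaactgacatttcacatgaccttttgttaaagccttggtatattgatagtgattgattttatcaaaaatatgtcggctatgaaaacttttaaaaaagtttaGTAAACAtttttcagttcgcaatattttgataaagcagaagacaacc
szy-2 (DBE, chrIII:5371557-5371707): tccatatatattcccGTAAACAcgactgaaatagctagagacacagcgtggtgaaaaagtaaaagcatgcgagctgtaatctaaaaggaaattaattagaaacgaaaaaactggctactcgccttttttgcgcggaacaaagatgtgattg
T19D12.1 (DAE, chrII:6666126-6666276): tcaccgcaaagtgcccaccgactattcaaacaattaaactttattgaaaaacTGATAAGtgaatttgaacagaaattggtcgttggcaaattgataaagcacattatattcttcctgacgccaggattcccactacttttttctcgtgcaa
H03G16.6 (DAE, chrX:15050942-15051092): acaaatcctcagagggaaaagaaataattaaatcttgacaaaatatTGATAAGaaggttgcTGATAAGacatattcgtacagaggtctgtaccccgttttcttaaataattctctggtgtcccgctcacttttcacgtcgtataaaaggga
dna-2 (neither, chrII:11778170-11778320): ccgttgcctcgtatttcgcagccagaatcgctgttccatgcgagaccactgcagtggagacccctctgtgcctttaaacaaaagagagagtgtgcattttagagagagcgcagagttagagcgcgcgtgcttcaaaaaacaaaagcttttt
skr-20 (neither, chrX:13222548-13222698): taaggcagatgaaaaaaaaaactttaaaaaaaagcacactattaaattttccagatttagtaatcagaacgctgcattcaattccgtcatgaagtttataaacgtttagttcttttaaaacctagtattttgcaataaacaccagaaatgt
Each is named after the protein-coding gene with the nearest annotated start. The DBE of the camt-1 peak began 29 bp after the summit, which lay 2075 bp upstream of the start of camt-1 (WBGene00020251), a calmodulin-binding transcription activator gene. That of the szy-2 peak began 60 bp before the summit and 356 bp separated the summit from the start. The T19D12.1 peak held 1 DAE and the H03G16.6 peak held a pair of them. The dna-2 peak, 185 bp upstream of the start of a DNA replication helicase and nuclease gene, held neither element but did hold the repeat GAGAGAG. Its window had a GC content of 49.01%, and that of the skr-20 peak, which held neither element either, 27.8%.

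The signal of a peak is the authors' own score, whose scale is not stated. Signals are set side by side as they stand in each list and are not compared in size across lists by any test. Since the weak peaks were selected on this signal, its values are a description. The pooled signal of the weak peaks ran from 3.15 to 35.39, with a median of 22.2 and quartiles of 14.7 and 28.7. The weakest IDR-thresholded peak had a signal of 35.3914 and the strongest entry below the cut 35.3908. The cut thus divided the pooled list by pooled signal, between values that differed in the fourth decimal. Just above the cut, and so in the IDR-thresholded list, stood the peaks nearest ztf-8 (35.39), nhr-88 (35.40) and dao-3 (35.43), and just below it the weak peaks nearest Y41D4A.4 (35.39), cyn-5 (35.36) and mnk-1 (35.35). The limit of 100 bp on the match cut through a continuous range as well, since 88 weak peaks had their farther replicate summit at 91 to 100 bp and 103 other entries had it over 100 and up to 110 bp away. The limit of 300 bp did not, since 94 entries matched in both replicates lay over 200 and up to 300 bp from an IDR-thresholded summit and 2 lay over 300 and up to 400 bp away.

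The share of entries with a match in both replicates rose with pooled signal. The rule used both values and the lists share reads, so these shares are a description. Of the 12755 nuclear entries below the cut and over 300 bp from an IDR-thresholded summit, 28.7% had a summit within 100 bp in replicate 1, 39.7% in replicate 2 and 8.19% in both. The share matched in both was 1.74% (95% Wilson interval 1.44 to 2.097) at a signal of 3 to 10, 7.73% (6.96 to 8.59) at 10 to 20, 22.4% (20.6 to 24.4) at 20 to 30 and 34.8% (31.1 to 38.7) at 30 to 36. Above the cut it went on to 45.1% of the 1750 weakest IDR-thresholded peaks and 85.3% of the 6998 stronger ones. Another 6631 entries matched in 1 replicate alone and 5079 in neither, with median signals of 11.7 and 7.48. For scale, the product of the 2 single shares is 11.4%, and 1.43% of the nuclear genome lay within 100 bp of a summit in both replicates. Neither is a chance level, since the entries were selected on pooled signal and the pooled and replicate lists share reads. The shares of the 12755 entries leave out the IDR-thresholded peaks.

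**Figure D1:**
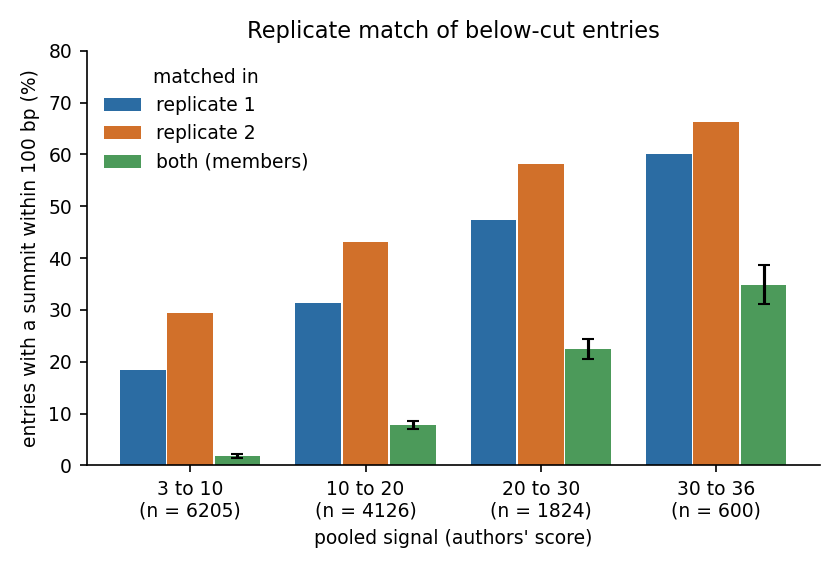
Share of below-cut entries over 300 bp from an IDR-thresholded summit (y axis, percent) with a summit within 100 bp in replicate 1, in replicate 2 and in both, by pooled signal (x axis, the authors' score). Bars on the share matched in both, the weak peaks, are 95% Wilson intervals. That share goes from 1.74% in the lowest bin to 34.8% in the highest.

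The signals of the weak peaks in the replicates were spread widely. They had a median of 7.23 in replicate 1's own list, from 2.00 to 34.4, and of 7.12 in replicate 2's, from 2.00 to 45.0. Over the 1045 peaks the Spearman correlation of both was 0.01 and the Pearson correlation of their log2 values 0.02. This is a description over peaks that share 2 libraries and were selected on a ranking of the same reads. The 790 weakest IDR-thresholded peaks matched in both replicates gave a Spearman correlation of -0.29. The greater replicate signal was at least 3 times the lesser at 249 weak peaks. Both replicate signals lay below the pooled one at 947 and above it at 13. Of the weak peaks, 16.8% were among the 8777 strongest entries of replicate 1, as many as the IDR-thresholded list holds, 12.5% among those of replicate 2, 24 peaks in both and 762 in neither. The match in position was required by the rule, and the range of pooled signal was bounded by it, so neither the match nor this correlation is a finding about reproducibility.

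**Figure D2:**
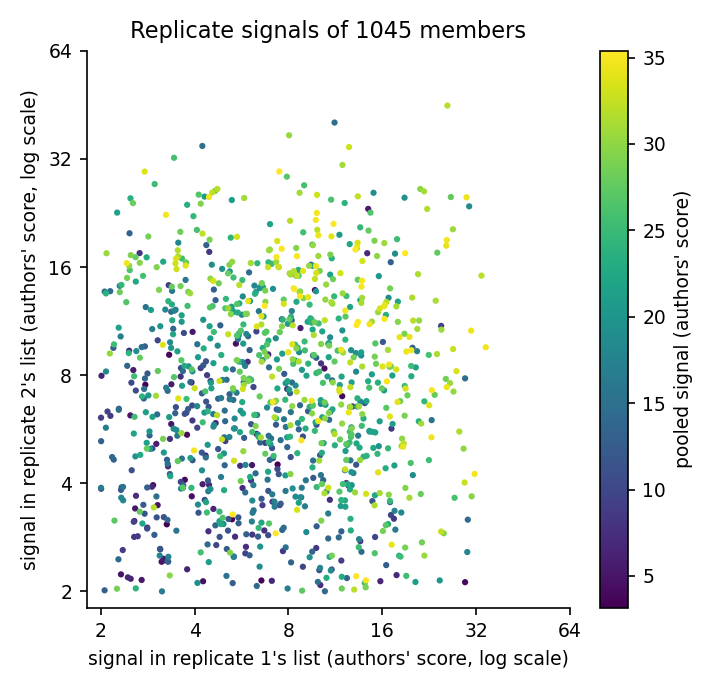
Signal of each of the 1045 weak peaks in replicate 1's own list (x axis) and replicate 2's (y axis), the authors' score on log axes, coloured by pooled signal. The points show no slope (Spearman's rho 0.01). Upper quartiles are 11.9 in replicate 1 and 11.5 in replicate 2, and the highest values 34.4 and 45.0.

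Summit positions were close within that limit. The median distance from the pooled summit was 25 bp in replicate 1 and 32 bp in replicate 2, and 537 weak peaks had a summit within 50 bp in both. No replicate summit served more than 1 weak peak. Nearly all entries, 1030 of 1045, were 350 bp wide. The deposited −log10 q-value stood at the pooled list's maximum for 461 weak peaks (44.1%), close to the 46.9% of all nuclear entries. It did so for 100% of IDR-thresholded peaks, 12.97% of all below-cut entries and 3.64% of unmatched ones. In the lists of replicate 1 and replicate 2, 396 and 157 weak peaks stood at the maximum. No share over all entries is given here for those 2 lists.

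The 20 strongest weak peaks spanned pooled signals of 34.96 to 35.39, and all 20 had both replicate signals below the pooled one. In replicate 1 their signals had a lowest value of 5.30, a median of 8.76 and a highest of 18.96, and in replicate 2 of 2.15, 13.6 and 29.5. Of these peaks, 12 were intergenic, 4 intronic, 3 in 3' UTRs and 1 in a coding exon, and 11 summits lay in a promoter window, which spans the 1000 bp before and the 300 bp after any annotated start of a protein-coding gene. None held a DBE within 75 bp of the summit, 2 held a DAE and 7 a GATA site.

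Among these 20 was a peak inside daf-2, the insulin and IGF-1 receptor gene upstream of DAF-16 itself. Its signal was 35.04 in the pooled list, 13.8 in replicate 1 and 14.7 in replicate 2, with summits 4 and 1 bp from the pooled one. The summit, at 3032905 of chromosome III, fell in an intron of daf-2 (WBGene00000898, 2994514 to 3040846, reverse strand), 4105 bp upstream of the nearest annotated start, which is internal to the gene, and 1774 bp from the nearest IDR-thresholded summit. Both replicates thus gave it nearly equal signals at nearly the same base.

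The other peaks differed in how far the replicates matched. The peak nearest sesn-1, the sestrin gene, lay 4090 bp upstream of its start on chromosome I, with signals of 35.08 pooled, 7.13 in replicate 1 and 6.73 in replicate 2. The peak nearest C43C3.4 had 34.96, 13.7 and 14.1, and that nearest Y41D4A.4 had 35.39, 18.96 and 17.5. The replicates stood close together at these loci. They stood apart at mnk-1, a MAP kinase-interacting kinase gene, with 35.35 pooled, 13.2 in replicate 1 and 2.20 in replicate 2. At clec-169, a C-type lectin gene with the summit 193 bp upstream of its start, the values were 35.08, 14.2 and 2.15. At Y48A6B.9, 8 bp upstream of the start and with a DAE, they were 35.17, 7.48 and 29.5. The DNA replication gene dna-2 had 35.29, 13.1 and 17.9, in a window shared with patr-1, a P-body component gene.

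Regulators and a structural gene completed the named loci. The peak nearest nhr-62, a nuclear hormone receptor gene known for a role in the longevity of dietary restriction, lay downstream of its start and had signals of 35.13 pooled, 8.80 in replicate 1 and 5.27 in replicate 2. The peak nearest end-3, an endoderm GATA factor gene, had 35.10, 8.52 and 17.1, with the summit 1172 bp upstream of the start. The cuticle collagen gene col-9 had a summit 97 bp upstream of its start, with 35.05, 7.32 and 17.1. The remaining peaks lay nearest the cyclophilin gene cyn-5, the phosphodiesterase gene pde-6, the Skp1-related gene skr-20, and C24B9.3, F48E8.4, C30G4.4, T23B3.1, ZC239.13 and T19D12.1.

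**Figure D3:**
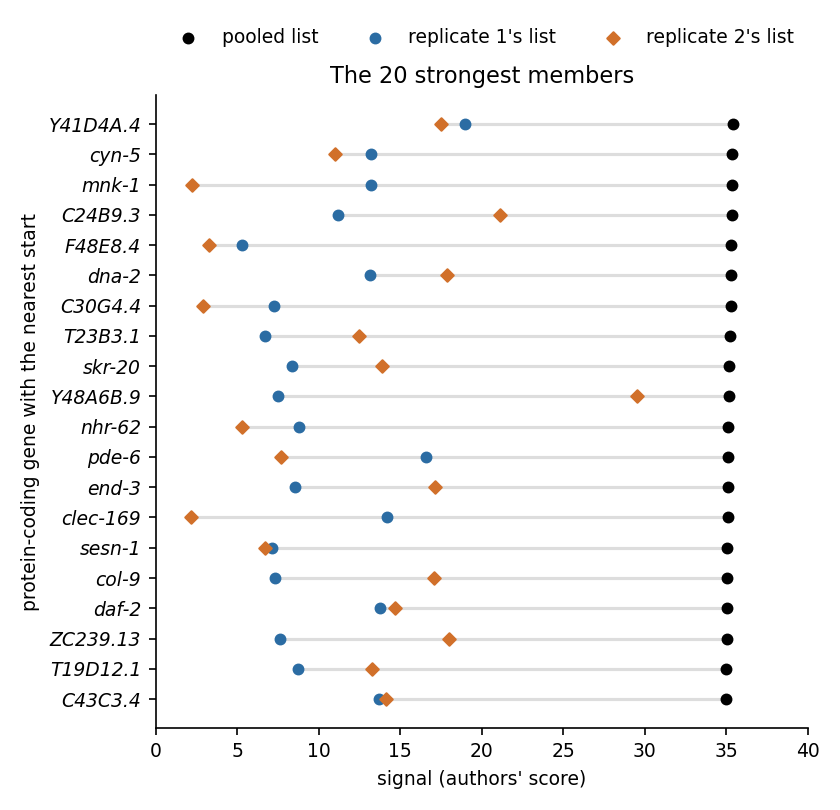
Signal (x axis, the authors' score) of the 20 strongest weak peaks in the pooled list and in each replicate's own list, by the protein-coding gene with the nearest start (y axis). Pooled signals lie between 34.96 and 35.39, and replicate signals between 2.15 and 29.5, close to each other at daf-2, sesn-1 and C43C3.4 and far apart at mnk-1, clec-169 and Y48A6B.9.

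Sequence and annotation played no part in the rule, so they could be tested, although the motifs were chosen with earlier results of these data known. Each motif was searched for, on either strand, in the 75 bp to each side of a summit and in a flank of the same length centred 500 bp away. Summits and flanks were compared by an exact two-sided McNemar test, with p-values adjusted over 9 motifs by Benjamini and Hochberg. Wald tests of a logistic model over all 22437 nuclear entries compared the weak peaks with other entries. A difference passed where its adjusted p was under 0.05. These tests take peaks as independent and say how the regions differ, not how replicates vary.

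Of the motifs that passed, the DAE passed under all 12 alternative settings run for it, though counting neighbouring weak peaks once removed none. It stood at 74 of 1045 summits (7.08%, 95% Wilson interval 5.68 to 8.80) and at 39 flanks (3.73%), a log2 ratio of 1.03 from 68 pairs with the element at the summit alone and 33 at the flank alone (adjusted exact p = 0.00289). The share over all nuclear entries of the pooled list was 11%. The centre of the DAE nearest the summit lay a median of 31.5 bp from it. Copies stood at 3.16 per 100 weak peaks in the 50 bp before the summit and 2.30 in the 50 bp after it, and between 0.38 and 1.24 in each 50 bp that lay 200 to 500 bp away on either side.

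The GATA site TGATAA, which every DAE contains, stood at 223 summits (21.3%, 18.96 to 23.9) and 166 flanks (15.9%), a log2 ratio of 0.53 (adjusted exact p = 0.00469), against 26.5% of all nuclear entries. Windows with a GATA site but no DAE made up 14.3% of summits and 12.2% of flanks, and with only those counted the difference did not pass (log2 ratio 0.26, adjusted exact p = 0.328, a count added after the data were seen). The GATA difference passed under the same alternative settings as the DAE, but only with the DAE windows included.

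The DBE itself, the element that FOXO proteins bind, was rare. It stood at 30 summits (2.87%, 2.02 to 4.07) and 15 flanks (1.44%), a log2 ratio of 0.98 that did not pass after adjustment (adjusted exact p = 0.0803, unadjusted exact p = 0.0357). Over all nuclear entries the share was 4.9%. The same difference passed under 5 of the 12 alternative settings tried for it, among them motif windows of 50 bp (log2 ratio 1.31, adjusted exact p = 0.0451) and of 150 bp (0.84, 0.0262) and a flank 1000 bp away (2.02, 0.00086). It was smaller with a replicate match within 50 bp (0.36, adjusted exact p = 0.871) and with the flank on the opposite side (0.46, 0.414). Of the 30 peaks with a DBE, 12 lay in promoter windows, and 1 also held a DAE.

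The repeat GAGAGAG stood at 58 summits (5.55%, 4.32 to 7.11) and 26 flanks (2.49%), a log2 ratio of 1.21 (adjusted exact p = 0.00289), against 6.11% of all nuclear entries. With the replicate match tightened to 50 bp the ratio was 0.97 and did not pass (adjusted exact p = 0.131). Of the 58 windows 2 also held a DAE, which stood at 7.08% of all weak peaks, and this overlap was not tested.

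The other motifs did not pass in this comparison. The E-box CACGTG stood at 2.30% of summits and 2.78% of flanks (4.05% of all entries), the AP-1 site TGANTCA at 5.93% and 4.21% (4.99%), and the heat shock element TTCNNGAA at 10.7% and 11.8% (8.86%). The letters of the DBE and DAE in reverse order, used as controls, stood at 3.54% and 3.06% for ACAAATG (3.71% of all entries) and at 1.72% and 1.72% for ACTATTC (2.02%). With the flank on the opposite side, the AP-1 site passed (log2 ratio 0.74, adjusted exact p = 0.0371), and ACAAATG was lower at summits and passed as well (log2 ratio -0.73, adjusted exact p = 0.0371), so a control of this kind did not stay neutral under every choice of flank. Of all 8192 words of 7 letters, taken without a preset list, 0 were higher and 0 lower at summits with an adjusted exact p under 0.05 (0% of words tested in each direction). At an unadjusted p under 0.05, 234 were higher and 154 lower, and no other test was run. The lowest p belonged to ACCACCA, at 39 summits and 12 flanks, and the list of 10 also held CTCTCTC, the opposite strand of GAGAGAG, and the DAE.

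Over all of these, 747 of the 1045 weak peaks held none of DBE, DAE, GATA site and GAGAGAG within 75 bp of the summit, and 298 held at least 1. Of the 262 weakest, 52 held at least 1 (19.8%, 15.5 to 25.1), and of the 261 strongest 90 did (34.5%, 28.98 to 40.4). With GAGAGAG left out, 76.5% of the weak peaks held none of DBE, DAE and GATA site, against 70.1% of all nuclear entries. That share was 83.9% of entries matched in neither replicate and 67.1% of the weakest IDR-thresholded peaks, and its differences were not tested. The DAE share of the weak peaks was 3.82%, 6.51%, 9.58% and 8.43% from the weakest to the strongest of 4 equal groups by signal. Over the same groups the DBE share was 3.05%, 2.68%, 2.68% and 3.07%. The DAE share was lowest among the weakest peaks, where its interval of 2.09 to 6.88 overlapped those of the other groups, and the DBE share moved little.

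**Figure D4:**
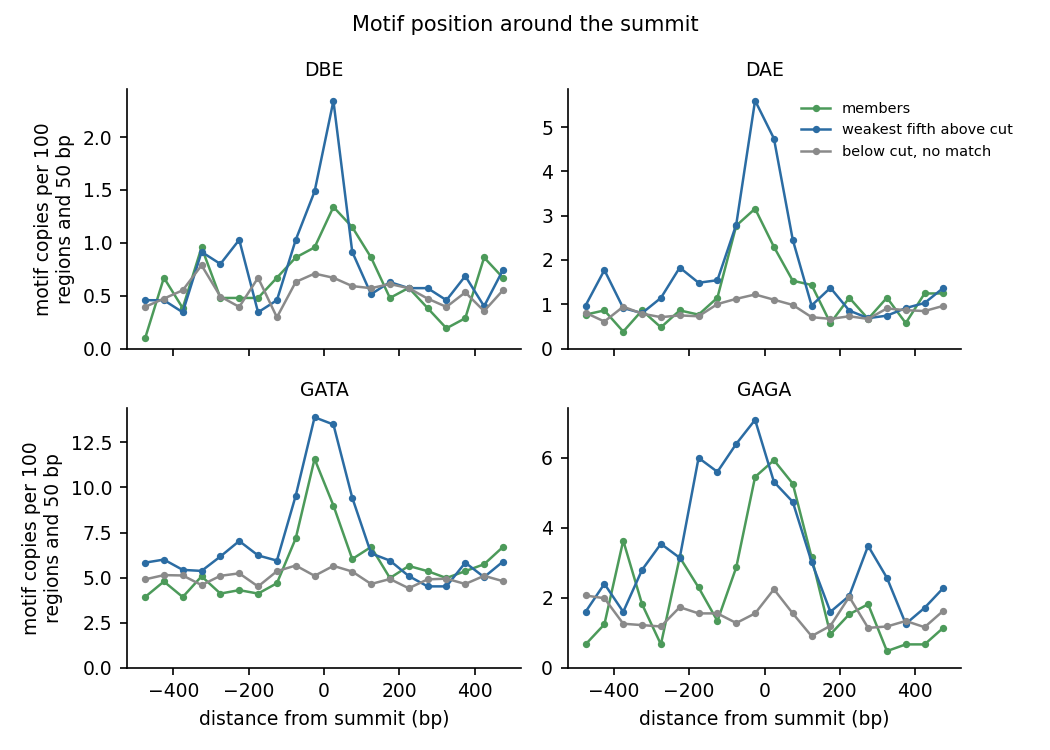
Copies of DBE, DAE, GATA site and GAGAGAG per 100 regions in steps of 50 bp (y axis) by distance from the summit (x axis, bp, forward strand), for the weak peaks, the 1750 weakest IDR-thresholded peaks and below-cut entries without a replicate match. DAE copies of the weak peaks reach 3.16 beside the summit, between those of the other sets.

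For 3 of these 4 motifs the weak peaks stood between the entries without a match and the peaks just above the cut. Compared with the 5079 entries matched in neither replicate, they more often held a DAE (7.08% against 3.23%, log2 odds ratio 1.19 ± 0.21 SE, n = 22437, adjusted p = 8.52e-08), a GATA site (21.3% against 14.3%, 0.70 ± 0.12, 8.52e-08) and GAGAGAG (5.55% against 2.52%, 1.18 ± 0.23, 2.28e-06). The DBE did not pass (2.87% against 1.97%, 0.56 ± 0.30, n = 22437, adjusted p = 0.137, 95% interval -0.04 to 1.15). Compared with the 1750 weakest IDR-thresholded peaks, they less often held a DAE (7.08% against 12.1%, -0.85 ± 0.20, n = 22437, adjusted p = 0.000131), a GATA site (29.6% there, -0.63 ± 0.13, 8.36e-06) and GAGAGAG (8.80% there, -0.72 ± 0.23, 0.00595). Again the DBE did not pass (4.63% there, -0.72 ± 0.31, n = 22437, adjusted p = 0.0564).

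Signal moved with all of these contrasts, since the weak peaks had a median of 22.2, the unmatched entries 7.48 and the peaks above the cut 43.5. With log2 signal as a covariate, DAE (log2 odds ratio 0.70, n = 22437, adjusted p = 0.01) and GAGAGAG (0.84, 0.00614) still passed against the unmatched entries, while the GATA site did not (0.23, 0.245). With that covariate, none of the 3 contrasts with the weakest IDR-thresholded peaks passed (DAE -0.42, n = 22437, adjusted p = 0.202). Those classes do not overlap in signal, which the rule used, so holding it equal between them extrapolates and the lost calls say nothing about a difference in motifs. When only below-cut entries with a signal of at least 20 were kept, 618 weak peaks and 361 unmatched entries, a choice made after the data were seen, no contrast with the n = 361 unmatched entries passed (DAE 0.93, adjusted p = 0.0903, and GAGAGAG 0.49, 0.464). The summits of those 618 held a DAE more often than their flanks (log2 ratio 1.8, adjusted exact p = 6.36e-05).

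Against the 6631 entries matched in 1 replicate alone, the weak peaks more often held a DAE (7.08% against 4.24%, log2 odds ratio 0.78 ± 0.19, n = 22437, adjusted p = 0.000216), a GATA site (16.9% there, 0.41 ± 0.12, 0.0018) and GAGAGAG (3.56% there, 0.67 ± 0.22, 0.00598). With the signal covariate none of these passed (DAE 0.50, n = 22437, adjusted p = 0.0887), nor did they among entries with a signal of at least 20 (DAE 0.20, adjusted p = 0.65). The GATA contrast also did not pass at over 1000 bp from an IDR-thresholded summit (0.35, n = 22437, adjusted p = 0.0742), nor the GAGAGAG contrast with a replicate match within 50 bp (0.50, 0.231).

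**Figure D5:**
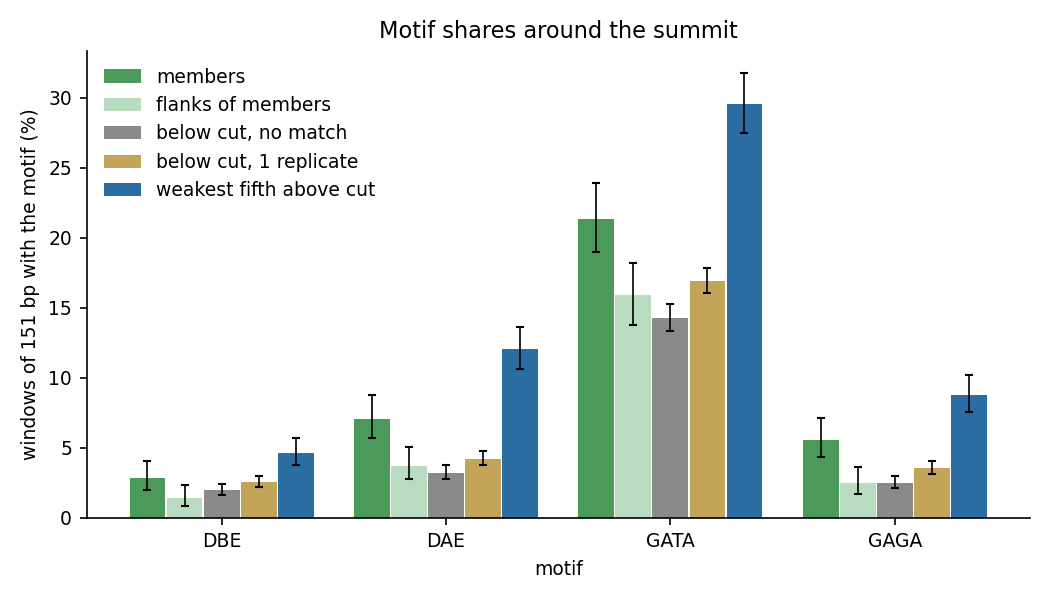
Share of 151 bp windows (y axis, percent) with each motif (x axis) at weak peak summits, in their flanks, at below-cut entries without a match or with a match in 1 replicate, and at the 1750 weakest IDR-thresholded peaks. Bars are 95% Wilson intervals. For the DAE the weak peaks stand at 7.08%, between 3.23% without a match and 12.1% above the cut.

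The weak peaks also stood between the other sets in where they lay. Of their summits, 443 (42.4%, 39.4 to 45.4) fell in a promoter window, close to the 41.8% of all nuclear entries of the pooled list. The share was 30.05% of unmatched entries (log2 odds ratio 0.78 ± 0.10, n = 22437, adjusted p = 5.48e-14), 34.1% of those matched in 1 replicate (0.51 ± 0.10, 3.15e-07) and 47.8% of the weakest IDR-thresholded peaks (-0.32 ± 0.11, 0.00528). With log2 signal as a covariate the difference from the unmatched entries still passed (0.57, n = 22437, adjusted p = 2.4e-07) and that from the weakest IDR-thresholded peaks, which do not overlap the weak peaks in signal, did not (-0.14, adjusted p = 0.243). Among below-cut entries with a signal of at least 20 (n = 618 weak peaks) none of the 3 passed (0.28, adjusted p = 0.191, against unmatched entries, 0.09, 0.522, against those matched in 1 replicate and -0.22, 0.171, against the weakest IDR-thresholded peaks).

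The rest of the annotation is given as shares, without a test. Intergenic sequence held 34.1% of weak peak summits, introns 29.5%, coding exons 22.01%, 3' UTRs 7.18%, 5' UTRs 3.83% and other exons 3.44%. Coding exons held 5.98% of all IDR-thresholded summits and 28.6% of unmatched ones, and intergenic sequence 56.2% and 23.3%. The weak peaks in coding exons seldom held a motif, 41 of 230 with at least 1 of the 4 (17.8%, 13.4 to 23.3), against 117 of 356 intergenic ones (32.9%, 28.2 to 37.9). These motif shares by annotation are given for the weak peaks alone, so the difference cannot be called particular to them. Of the 30 DBE, 18 were intergenic, 7 intronic and 3 in coding exons. Chromosome III held 203 weak peaks (19.4%) and chromosome X 191 (18.3%), where 14.6% and 23.1% of IDR-thresholded summits lay. The shares of all below-cut nuclear entries were close to those of the weak peaks, at 18.7% and 17.6%. All nuclear entries of the pooled list had 17.1% and 19.7%. On X 28.8% of the weak peaks were in a promoter window, and on the autosomes 45.4%, shares given for the weak peaks alone. The median distance to the nearest protein-coding start was 812 bp, and that to the nearest IDR-thresholded summit 1215 bp. An IDR-thresholded summit lay within 1000 bp of 405 weak peaks (38.8%). The share was 29.8% of entries matched in 1 replicate and 23.5% of unmatched ones, which were under the same limit of 300 bp.

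A start of a tRNA gene lay within 300 bp of 10 weak peaks (0.96%, 0.52 to 1.75), compared with 2.23% of the weakest IDR-thresholded peaks, 3.81% of all of them and 0.28% of unmatched entries. Here too the weak peaks stood between the sets, by a small count that was not tested.

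The promoter windows of 489 of 19973 protein-coding genes (2.45%) held a weak peak, and 23 of these genes held 2 or more. Of the 489, 198 (40.5%, 36.2 to 44.9) also had an IDR-thresholded peak in the window, compared with 23.5% of genes without a weak peak. The other 291 genes had weak peaks alone. Since 68 weak peaks lay in windows of 2 or more genes, genes are not independent. A gene with more annotated starts also has more window in which peaks of both kinds can lie. The shares of 40.5% and 23.5% were not adjusted for this, and their difference was not tested. The lists below are described by counts beside the 2.45%, and most hold too few genes for a share to be told from it. Their intervals were not adjusted over the 37 lists. Where a list's count of genes with an IDR-thresholded peak is given, it stands beside 4779 of all 19973 genes (23.9%).

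The list of insulin-like signalling had weak peaks at 3 of its 29 genes (10.3%, 3.58 to 26.4), where 16 had an IDR-thresholded peak. The peak of skn-1, the Nrf factor gene that acts beside daf-16 in stress resistance, had signals of 32.48 pooled, 4.55 in replicate 1 and 25.8 in replicate 2. Its window also held an IDR-thresholded peak of signal 68.9. The insulin receptor substrate gene ist-1 had 30.77, 11.98 and 9.24, with the summit 243 bp downstream of a start. No IDR-thresholded peak lay in the window of ist-1, and neither the skn-1 nor the ist-1 peak held a DBE or DAE.

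Counts of weak peaks at known targets could not be told from the 2.45% of all genes. Of 30 class I genes, which rise with DAF-16 activity, 0 held a weak peak (upper Wilson bound 11.4%), while 18 held an IDR-thresholded one. Of 19 class II genes, which fall with it, dod-22 alone did (5.26%, 0.94 to 24.6), with signals of 28.45 pooled, 25.6 in replicate 1 and 7.81 in replicate 2. Its summit lay 514 bp upstream of the start, held a DAE and had no IDR-thresholded peak beside it in the window. The lists of dauer TGF-beta and steroid pathways (21 genes), insulin-like peptides (39), major sperm proteins (31), transthyretin-related genes (58) and potassium channels (52) held none.

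Metabolic genes had the highest share of any list, with 6 of 38 genes of glycolysis and gluconeogenesis (15.8%, 7.44 to 30.4). IDR-thresholded peaks lay at 26 of the 38, and 1 of the 6 had none. The glycogen phosphorylase gene pygl-1 had a weak peak of 26.997 pooled, 16.43 in replicate 1 and 3.06 in replicate 2, beside an IDR-thresholded peak of 467. The phosphoglycerate mutase gene ipgm-1 had 18.49, 17.6 and 17.4, with the replicates nearly equal, beside a peak of 78.6. The trehalose phosphate synthase gene tps-2 had 17.14, 20.7 and 9.33 beside a peak of 174. At these 3 genes the weak peak shared its window with an IDR-thresholded peak, that of ipgm-1 below the median IDR-thresholded signal of 107.3.

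Lipid genes had 3 of 48 (6.25%, 2.15 to 16.8). The enoyl-CoA hydratase gene ech-6 had a weak peak with a DAE at 31.22 pooled, 18.4 in replicate 1 and 5.08 in replicate 2, beside an IDR-thresholded peak of 436. The fatty acid desaturase gene fat-2 (26.59 pooled) and mdt-15 (17.35), a Mediator subunit gene of lipid metabolism, had weak peaks alone. The list of 34 autophagy and lysosome genes had 3 (8.82%, 3.05 to 22.96). These were unc-51, the ULK kinase gene (24.47 pooled, no IDR-thresholded peak), epg-9 (20.27) and atg-7 (16.485).

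Stress and immune lists had similar counts. Of 34 oxidative stress and detoxification genes, 3 held a weak peak (8.82%, 3.05 to 22.96). These were skn-1, the glutathione reductase gene gsr-1 (14.41 pooled) and the mitochondrial peroxiredoxin gene prdx-3 (4.58). Of 41 heat shock and proteostasis genes, 3 did (7.32%, 2.52 to 19.4). They were the endoplasmic reticulum chaperone gene hsp-3 (14.60), cdc-48.2 (12.78) and dve-1 (12.49), a homeodomain gene of the mitochondrial stress response. Of 44 innate immunity genes, 3 did (6.82%, 2.35 to 18.2), at the saposin-like gene spp-2 (32.10), dod-22 and the bZIP factor gene zip-2 (17.79). At zip-2 the replicate signals were 30.01 and 2.57, and the IDR-thresholded peak of its window had 398.

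Of 56 developmental transcription factor genes, 4 held a weak peak (7.14%, 2.81 to 16.98). Among them were skn-1 and the heterochronic genes lin-42 (32.04 pooled, 33.3 in replicate 1, 15.1 in replicate 2) and lin-14 (27.74, 5.58 and 8.18). The lin-42 peak had no IDR-thresholded peak in its window, and its replicate 1 signal exceeded the pooled one. Nuclear hormone receptor genes had 9 of 269, led by nhr-40 (33.68 pooled), and F-box genes 9 of 322, led by fbxa-11 and fbxa-67, which share 1 peak (34.29).

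Among the cell type lists, the intestine, hypodermis and muscle markers had shares of 3.03%, 5% and 4.55%, above the 2.45% of all genes but with intervals that include it. Intestine markers had 1 of 33 genes, erm-1 (18.35 pooled), hypodermis and cuticle markers 2 of 40, the collagen genes sqt-3 (20.77) and sqt-1 (13.38), and muscle markers 2 of 44, the actin genes act-1 (22.73) and act-3 (17.43), near-identical copies at which reads are uncertain. Germline markers had 1 of 59, the RNA-binding protein gene car-1 (29.96), and neuron markers 0 of 60 (upper Wilson bound 6.02%). Chemoreceptor genes had 3 of 1292 (0.23%, 0.08 to 0.68), below the 2.45% of all genes, and 40 of these 1292 had an IDR-thresholded peak. A shorter list of defining markers gave 0 weak peaks at 9 intestine, 8 hypodermis, 8 muscle, 8 neuron and 8 germline genes, with IDR-thresholded peaks at 6, 1, 1, 2 and 0. Whole larvae were used, so a peak present in few cells and a weak peak in all cells cannot be told apart.

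The remaining families had low counts, with shares from 0.98% of neuropeptide genes to 9.09% of proteasome genes (3.14 to 23.6). They were 2 of 81 ribosomal protein genes, 3 of 33 proteasome genes, 2 of 67 UDP-glycosyltransferase genes, 1 of 74 cytochrome P450 genes, 3 of 49 glutathione S-transferase genes and 2 of 156 collagen genes. C-type lectin genes had 4 of 240, histone genes 1 of 81, neuropeptide genes 1 of 102, ceh homeobox genes 1 of 63 and helix-loop-helix genes 1 of 25. Vacuolar ATPase genes had 1 of 20, saposin-like and lysozyme genes 2 of 47 and short-chain dehydrogenase genes 1 of 30. The helix-loop-helix gene was hlh-13, whose weak peak of 15.36 stood beside an IDR-thresholded one of 1200.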

How the data were processed

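The authors deposited peak lists for each replicate, for both pooled and after IDR thresholding, per the file headers and labels. Aligner, peak caller and the cut of the IDR list were not given in the sources used here. Signal is the authors' deposited score, and the deposited −log10 q-value was capped. The lists hold no read counts, so depth is unknown. Control and signal files and the ce10 lists were not used here.

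The weak peaks, gene lists and motifs were chosen with earlier results of these data known. The replicates' lists held 16146 and 21378 entries, the pooled list 22466 (29 mitochondrial) and the IDR list 8777 (8748 nuclear). Genes came from Ensembl release 115 and letters from RefSeq, both for the same assembly, whose chromosome lengths none of the peak ends exceeded. A summit in several annotation classes got the first of 5' UTR, coding exon, 3' UTR, any further exon, intron and intergenic. The flank's side was drawn with a fixed seed. All CTTATCA overlap TGATAA. Log2 ratios of pairs had 0.5 added to each discordant count. The logistic model (statsmodels 0.14.6) compared the weak peaks with 5 other classes for 9 motifs, with 45 contrasts adjusted together, and for the promoter window, with 5. Wilson intervals, at 95%, cover counting error only. The naming rule took the 20 strongest weak peaks by nearest start, up to 3 genes of each of 37 lists by strongest weak peak, and the 10 words of 7 letters with the lowest p. The text names all of the first and part of the rest. One gene of the insulin-like signalling list is not reported here. Scripts were tested on simulated data. Alternatives were other match distances, windows and flanks, single replicates, clustered errors and a signal covariate. Other software was Python 3.11.15 with numpy 2.4.6, scipy 1.17.1, pandas 2.3.3 and, for figures, matplotlib 3.10.9.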

Additional observations from a re-analysis of the deposited data

How the results depend on the processing

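Samples could not be paired across conditions because the series held only 1 group, of 2 replicates. Over 17 alternatives, 259 of 329 values kept their direction and side of the threshold, or stayed within 1.5 times the count. The DAE at summits against flanks did so under all 12 run for it. Counting neighbouring weak peaks within 100 bp once removed none of the 1045, so that alternative could only repeat the main values. Depth is unknown, so what deeper libraries would show was not tested.

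The number of weak peaks was set by the limits. It was 537 with a match within 50 bp, 1903 within 200 bp, 640 at over 1000 bp from an IDR-thresholded summit and 523 for the stronger 50%, and 3658 to 5063 with 1 replicate left out. Genes with a weak peak numbered 266, 787, 296 and 264 under the same 4 limits, 1278 to 1780 with 1 replicate left out, and 285 with a window of 500 bp upstream to 100 bp downstream.

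For summits against flanks (log2 ratios), the DBE passed with a match within 200 bp (1.04), motif windows of 50 bp (1.31) and 150 bp (0.84) and a flank 1000 bp away (2.02), and ranged from 0.43 to 0.78 with 1 replicate left out, passing without replicate 1. GAGAGAG did not pass with a match within 50 bp (0.97), nor GATA without the DAE windows (0.26). A flank on the opposite side let 5 motifs pass, the AP-1 site (0.74) among them, and turned the reversed DBE to -0.73, which was -0.18 to -0.13 with 1 replicate left out. The E-box turned to 0.085 at over 1000 bp from an IDR-thresholded summit and the heat shock element to 0.032 with a match within 200 bp, and neither passed. Words of 7 letters higher at summits numbered 0 to 3 with 1 replicate left out, against 0.

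For log2 odds ratios against the weakest IDR-thresholded peaks, the DBE passed with a match within 200 bp (-0.79), with errors clustered on bins of 50 kb (-0.72) and with 1 replicate left out (-1.03 to -0.73), and turned to 0.10 with the signal covariate. The DAE, the GATA site, the GAGAGAG repeat and the promoter share did not pass in the stronger 50% (-0.47, -0.27, -0.38, -0.22), with the signal covariate (-0.42, -0.22, -0.41, -0.14) or at a signal of at least 20 (-0.46, -0.34, -0.48, -0.22). GAGAGAG did not pass at over 1000 bp from an IDR-thresholded summit (-0.57) or with motif windows of 50 bp (-0.55), nor the promoter share with a match within 50 bp (-0.23).

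Against unmatched entries, the DBE passed with motif windows of 150 bp (0.68), turned to -0.39 with the signal covariate and to -0.24 at a signal of at least 20, and ranged from -0.018 to 0.51 with 1 replicate left out. GATA did not pass with the covariate (0.23), and at a signal of at least 20 the DAE (0.93), the GATA site (0.54), the GAGAGAG repeat (0.49) and the promoter share (0.28) did not. Against entries matched in 1 replicate, the DBE turned to -0.14 with a match within 50 bp, -0.36 with the covariate and -0.57 at a signal of at least 20. Beyond what their construction changes, the causes of these shifts were not tested. The signal floor and the GATA count without DAE were chosen after seeing the data.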
